A study of Mus musculus with 12 samples.

Results

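The genes described here form a list of 40 that bind fatty acids, activate them and burn them in mitochondria, together with a smaller number that make, lengthen or store them. Members were taken by symbol from a table of 56791 gene names, and all 40 were found there. The tests used 17540 genes whose mean FPKM over 12 libraries was at least 1, where FPKM is fragments per kilobase of exon scaled to 1000000 assigned fragments. Of the 40 members, 39 passed that filter, and only Acsl5 fell under it. The cells were hippocampal astrocytes of adult naive male mice, isolated by fluorescence-activated sorting on ACSA-2, an astrocyte surface antigen. The Ctrl mice were Tnfrsf1b fl/fl, with the gene for the TNF receptor TNFR2 flanked by loxP sites and no Cre. The cKO mice were GfapcreERT2:Tnfrsf1b fl/fl, with the same floxed gene and a tamoxifen-dependent Cre under the Gfap promoter, which is active in astrocytes and also in adult neural stem cells. The age in weeks and the dosing that activates the Cre are not given in the sources used here. Sample titles carry A numbers (A1, A2 and A8 for Ctrl, and A4, A9 and A10 for cKO), each with a library S1 and a library S2. What A and S stand for is not explained in the labels, so S1 and S2 were averaged and each A number entered the tests once, as a unit (3 Ctrl and 3 cKO). P-values of the genotype and permutation tests rest on the spread between these 6 units, except where all 12 libraries are said to enter. In limma, each gene's variance is also drawn toward a trend over all genes tested. Its SE and p-value therefore do not measure that gene's own spread alone. P-values for S2 against S1, or for its interaction with genotype, measure the spread of differences between S2 and S1. Nothing in the labels says that the 6 units are 6 animals.

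Inside a cell, fatty acids are carried by small proteins of the Fabp family and are joined to coenzyme A by acyl-CoA synthetases. The carnitine shuttle (Cpt1 enzymes, the carrier Slc25a20 and Cpt2) moves long acyl chains into mitochondria. There, acyl-CoA dehydrogenases, hydratases, hydroxyacyl dehydrogenases and thiolases shorten the chain in repeated rounds, and the electron transfer flavoprotein passes the electrons on to the respiratory chain. Astrocytes are the main site of fatty acid oxidation in the brain, and they can turn the acetyl-CoA into ketone bodies. They also synthesise fatty acids and desaturate them for membranes, and Scd2 is the stearoyl-CoA desaturase that prevails in the brain.

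Reads assigned to genes numbered 17311872 to 35323327 per library, worked out from the spacing of low FPKM values, the commonest being taken as a pair of reads. Reads not assigned to a gene cannot be counted from these values. Low whole counts were mostly even (72.6% to 80.4% per library), so reads here need not be separate fragments. The 16 astrocyte markers summed to 5529 to 6892 FPKM in the Ctrl libraries and 6402 to 7387 in the cKO libraries, and none was at 0, so markers of the labelled cell type were abundant in both genotypes. The 12 oligodendrocyte markers summed to 1092 to 2358 FPKM in Ctrl and 311 to 755 in cKO, all 12 with a lower mean in cKO. The summed ranges do not overlap, and for the markers' mean log2 level a two-sided exact permutation test, with 20 possible arrangements, gave p = 0.1, the smallest it can give. The 16 immediate-early genes summed to 320.2 to 1250 FPKM in Ctrl and 241 to 590.4 in cKO, with overlap. All 15 of them that were tested had a lower mean log2 level in cKO. Their mean log2 level was 4.57 ± 1.05 in Ctrl and 3.75 ± 0.499 in cKO (SD, n = 3 units, exact permutation p = 0.3). The 7 oligodendrocyte precursor markers summed to 92.9 to 137 and 54.1 to 79.0 FPKM, without overlap. Separate at low levels were also the 10 neuronal markers, at 9.05 to 11.8 FPKM in Ctrl and 4.14 to 8.74 in cKO (exact permutation p = 0.1), and the 10 microglial markers, at 15.3 to 19.1 and 20.2 to 39.3 (exact permutation p = 0.3). The part of these lists in the results was not tested. Neural progenitor markers overlapped, at 11.1 to 23.3 FPKM. Erythrocyte markers overlapped between libraries, at 0.085 to 1.75 FPKM in Ctrl and 1.69 to 2.60 in cKO. Their unit sums did not overlap, at 0.102 to 1.49 and 1.80 to 2.31 (exact permutation p = 0.1). Of the 5 erythrocyte markers, 3 (Hbb-bt, Hba-a1 and Hba-a2) were at 0 throughout. Endothelial, mural and ependymal markers overlapped between genotypes, at 5.39 to 63.2, 66.0 to 145 and 63.8 to 301 FPKM. Choroid plexus markers reached 464 FPKM in A10 and lay at 1.78 to 74.8 elsewhere. The Ctrl unit A8 stood apart, with 21342 to 21572 genes above 0 against at least 23669 in the others. Tnfrsf1b, the floxed gene, was listed at 0 in 9 of 12 libraries. It had 4 reads in A1 S1 and 10 and 22 reads in the libraries labelled A4 cKO, so it could not check the labels. The microglial markers summed to 38.5 FPKM in A4 and 15.9 to 25.5 in the other units, and their part in the A4 reads was not tested. A4 is called cKO only as labelled, and results are also given without it. In sorted bulk samples, fewer cells of a type and less RNA per cell cannot be told apart.

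No member passed the genotype test. The adjusted p was under 0.05 for 0 of 39 members and for 0 of 17540 genes in limma with Benjamini-Hochberg adjustment, a background of 0% (1349 genes at an unadjusted p under 0.05), and the smallest adjusted p of a member was 0.606. At an unadjusted limma p under 0.05 there were 2 members, Acaa2 (higher in cKO) and Acsl1 (lower), which is 5.13% of 39 against a background of 7.69% (2.98% higher and 4.71% lower). The 3 cKO units lay wholly outside the Ctrl range for 7 members, 17.9% against a background of 13.0%. Of these, 5 were higher in cKO (Acaa2, Etfb, Acsbg1, Eci2 and Acads, background 5.76%) and 2 lower (Acsl1 and Cpt1c, background 7.22%). The median log2 fold change of the members, on the log2(FPKM + 1) scale, was 0.055 (24 above 0 and 15 below) against -0.0065 for all genes tested. Without A4 it was -0.0018 (19 above and 20 below), and without A1 it was 0.011 (20 and 19). Their median size of change was 0.12 against 0.21, and 2 members (5.13%) differed by more than 0.5 against 19.4% of all genes. All genes tested are not matched to the members by level. A mean FPKM of at least 5 was reached by 34 of the 39 members and by 7841 of the 17540 genes. The part of level in the smaller changes was not tested. The summed FPKM of the 40 members was 2078 ± 143 in Ctrl and 2010 ± 67.7 in cKO (SD, n = 3 units each).

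**Figure D1:**
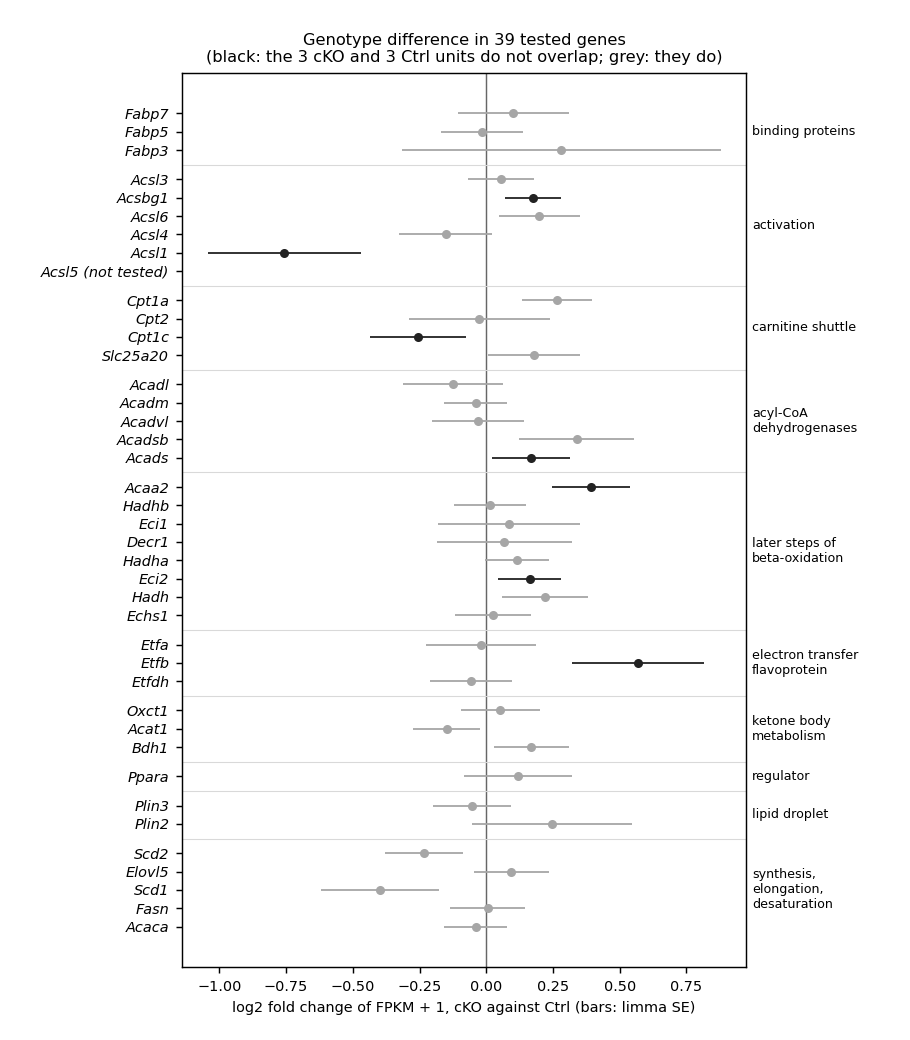
Log2 fold change of FPKM + 1 (cKO against Ctrl, horizontal axis) for the 39 tested members, grouped by role, with bars of 1 limma standard error; black points mark the 7 members whose units do not overlap. Points run from -0.76 for Acsl1 to 0.57 for Etfb around a median size of 0.12.

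In Ctrl, the brain desaturase Scd2 came first at 775 ± 107 FPKM (SD, n = 3), followed by the synthetases Acsl3 (288 ± 36.6) and Acsbg1 (128 ± 9.66), the elongase Elovl5 (120.5 ± 14.3) and the synthetase Acsl6 (83.5 ± 13.1). Of the tested genes, these 5 stood in the top 0.211%, 0.422%, 0.901%, 0.935% and 1.43% by Ctrl mean, and 15 members were in the top 10%. The list ended with Acsl1 (2.92 ± 1.19), Fabp3 (0.824 ± 0.851) and Acsl5 (0.485 ± 0.463). Between neighbours in this order, the Ctrl units were separate for 7 of 39 pairs (Scd2 over Acsl3, Acsl3 over Acsbg1, Elovl5 over Acsl6, Etfa over Fabp5, Echs1 over Acsl4, Etfdh over Acads and Acsl1 over Fabp3). The other 32 neighbouring pairs overlapped, so their order was not resolved. The same 10 members led the order in S1 alone, in S2 alone and without each Ctrl unit. FPKM divides by the deposited exonic length, which ran from 823 bases for Fabp3 to 17074 for Acaca, so levels of different genes also depend on that length. Gene positions are quoted as the deposited table has them; its build is not stated there, and 39 of 40 members sat at other positions than in GENCODE M21 (GRCm38), with the same span.

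**Figure D2:**
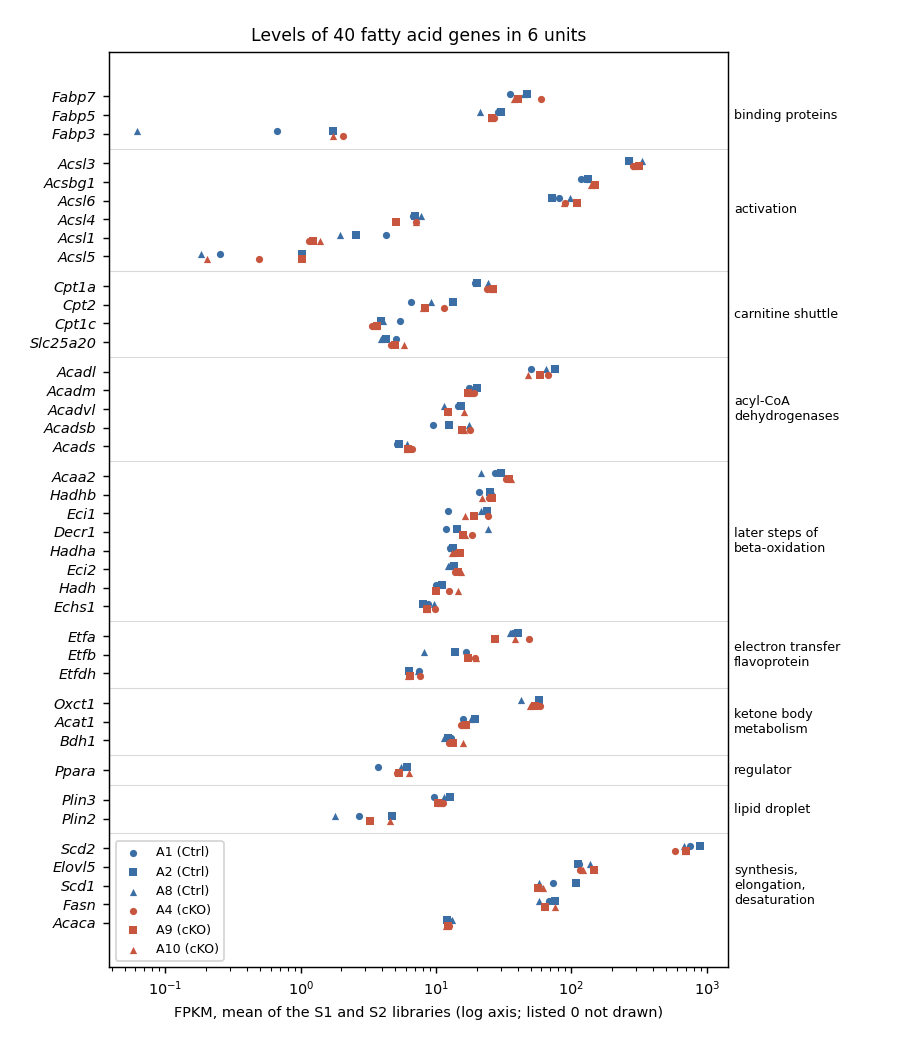
FPKM of the 40 members on a log axis, grouped by role, with 1 point for each unit (blue Ctrl, red cKO; the A9 value of Fabp3, listed at 0, is not drawn). Scd2 lies highest at 581 to 889 FPKM, blue and red points overlap for all but 7 members, and Fabp3 and Acsl5 spread most widely.

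Of the 3 binding proteins, Fabp7, the carrier of radial glia and astrocytes, supplied 54.4% to 67.5% of the summed Fabp FPKM in the 6 units. It measured 35.0, 47.2 and 44.3 FPKM in Ctrl A1, A2 and A8 and 60.1, 40.0 and 37.7 in cKO A4, A9 and A10. A4 was the highest, and the other 2 cKO units lay inside the Ctrl range (log2 fold change 0.10, SE 0.21, limma adjusted p = 0.965). Fabp5, the carrier first described in epidermis, measured 28.7, 30.1 and 21.3 FPKM in Ctrl and 27.0, 25.8 and 25.5 in cKO. The Ctrl units held both the lowest and the highest value, A8 being the low one (log2 fold change -0.016, SE 0.15, limma adjusted p = 0.994). Fabp3, the heart-type carrier, measured 0.667, 1.74 and 0.0620 FPKM in Ctrl and 2.06, 0 and 1.72 in cKO, from 0 to 59 reads a library. It was listed at 0 in both A9 libraries and in A8 S2, and its range in each genotype ran from near 0 to about 2 FPKM (log2 fold change 0.28, SE 0.60, limma adjusted p = 0.965).

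Among the 6 acyl-CoA synthetases, which trap fatty acids as CoA esters, Acsl3 and Acsbg1 held most of the signal. Acsl3, a synthetase of the endoplasmic reticulum and lipid droplets, gave 53.8% to 57.7% of the summed synthetase FPKM in every unit. Its values were 265, 268 and 329.9 FPKM in Ctrl and 285, 315 and 293 in cKO, with all cKO units inside the Ctrl range (log2 fold change 0.055, SE 0.12, limma adjusted p = 0.967). Acsbg1 (ENSMUSG00000032281, chromosome 9, 54512161 to 54569154, minus strand), the bubblegum synthetase for long and very long chains, measured 117, 133 and 134 FPKM in Ctrl and 146, 149 and 139.7 in cKO. All 3 cKO units, and all 6 cKO libraries, lay above every Ctrl value, but by little (log2 fold change 0.18, SE 0.10, limma adjusted p = 0.784). With the oligodendrocyte marker score of each unit as a covariate, the Acsbg1 difference was 0.050. That score, a mean log2 level, was 6.25 ± 0.590 in Ctrl and 4.48 ± 0.663 in cKO (SD, n = 3). Genotype and score went together in these units, so values with this covariate, here and below, cannot tell them apart. Acsl6, the synthetase known for supplying docosahexaenoic acid to brain lipids, measured 81.1, 71.8 and 97.6 FPKM in Ctrl and 90.2, 109 and 87.7 in cKO. Its genotypes overlapped, with A9 highest and A2 lowest (log2 fold change 0.20, SE 0.15, limma adjusted p = 0.854). Acsl4, which prefers arachidonic acid, stood at 7.17 ± 0.487 FPKM in Ctrl and 6.41 ± 1.20 in cKO (SD, n = 3), and Acsl5, a synthetase of intestine and liver, at 0.485 ± 0.463 and 0.573 ± 0.415.

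Acsl1 (ENSMUSG00000018796, chromosome 8, 46924074 to 46989088, plus strand), the synthetase prominent in heart, fat and liver, had the member list's largest difference. It measured 4.26, 2.55 and 1.96 FPKM in Ctrl A1, A2 and A8 and 1.15, 1.24 and 1.38 in cKO A4, A9 and A10. The cKO units were close together and all lower, whereas the Ctrl units spread, A1 being the highest. The means were 2.92 ± 1.19 and 1.26 ± 0.118 FPKM (SD, n = 3), and the log2 fold change with its SE was -0.76 ± 0.29, at a limma adjusted p of 0.607. Acsl1 made up 0.342% to 0.897% of the synthetase FPKM in Ctrl and 0.213% to 0.261% in cKO. At this low level the pseudocount matters, and with a pseudocount of 0.1 the log2 fold change was -1.09. The 6 units stood in nearly the same order by Acsl1 as by oligodendrocyte markers, and with the marker score as a covariate the log2 fold change was -0.26. Whether oligodendrocyte RNA has a part in the Acsl1 difference was not tested beyond that value.

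**Figure D3:**
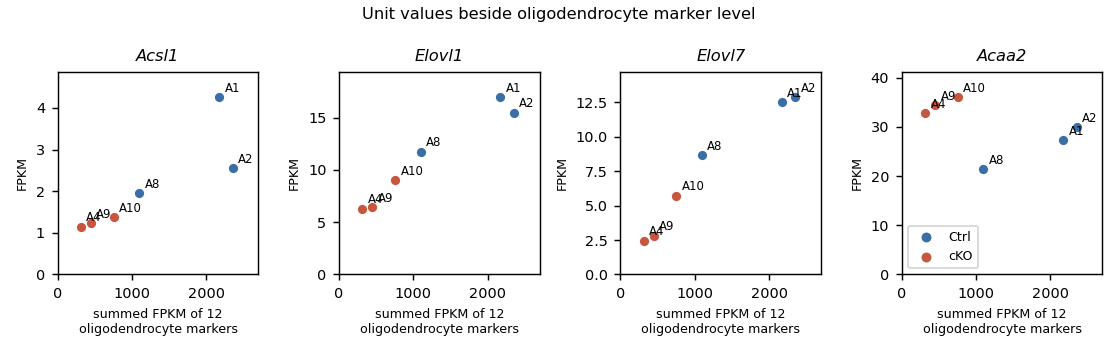
FPKM of Acsl1, Elovl1, Elovl7 and Acaa2 in each unit (vertical axes, from 0) against the summed FPKM of 12 oligodendrocyte markers (horizontal axes; blue Ctrl, red cKO). The 3 cKO units have both the lowest marker sums and the lowest Acsl1, Elovl1 and Elovl7 values, whereas their Acaa2 values are the highest.

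The sequences before the starts of Acsl1 and Acsbg1 are shown because these are the 2 synthetases whose units separate. Each is the 250 bases upstream of a RefSeq transcript start in GRCm38.p6, 5′ to 3′ on the gene's strand, with capitals marking 3 motifs on either strand: the CCAAT box, the GC box GGGCGG and the nuclear receptor hexamer AGGTCA. Acsl1 has 2 starts in the table, at chr8:46470787-46471036 and chr8:46490716-46490965 (plus strand), and Acsbg1 has 1 at chr9:54661886-54662135 (minus strand). The first Acsl1 sequence is rich in GC boxes, whereas the second, like that of Acsbg1, holds CCAAT boxes and no GC box.
Acsl1 first start: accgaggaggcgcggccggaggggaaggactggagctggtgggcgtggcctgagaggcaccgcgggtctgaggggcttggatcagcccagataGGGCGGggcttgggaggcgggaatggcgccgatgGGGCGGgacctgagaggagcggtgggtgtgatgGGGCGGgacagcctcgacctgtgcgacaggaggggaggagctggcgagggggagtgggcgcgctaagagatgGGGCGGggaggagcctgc
Acsl1 second start: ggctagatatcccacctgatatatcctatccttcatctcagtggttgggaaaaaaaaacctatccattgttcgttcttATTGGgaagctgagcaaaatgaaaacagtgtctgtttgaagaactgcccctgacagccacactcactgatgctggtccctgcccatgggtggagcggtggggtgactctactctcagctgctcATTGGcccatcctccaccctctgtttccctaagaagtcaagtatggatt
Acsbg1: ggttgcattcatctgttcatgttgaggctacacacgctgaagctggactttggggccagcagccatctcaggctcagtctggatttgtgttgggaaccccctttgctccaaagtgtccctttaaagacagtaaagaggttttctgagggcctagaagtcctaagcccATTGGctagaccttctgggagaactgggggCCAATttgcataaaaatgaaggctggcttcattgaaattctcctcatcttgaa
The deposited values are summed over a gene, so they do not say from which start Acsl1 was transcribed.

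Of the carnitine shuttle genes, Cpt1a, the rate-limiting enzyme of mitochondrial import, measured 19.3, 19.9 and 24.1 FPKM in Ctrl and 23.7, 26.5 and 26.3 in cKO. Only A8 of the Ctrl units reached into the cKO range (log2 fold change 0.27, SE 0.13, limma adjusted p = 0.720). Cpt1a gave 76.8% to 87.5% of the FPKM of the Cpt1 genes. Cpt1c (ENSMUSG00000007783, chromosome 7, 44608796 to 44624275, minus strand), the brain isoform of the endoplasmic reticulum with little catalytic activity, measured 5.37, 3.92 and 4.08 FPKM in Ctrl and 3.38, 3.67 and 3.59 in cKO. Every cKO library, the highest at 3.85 FPKM, lay below every Ctrl library, the lowest at 3.88 FPKM. On the log2 scale cKO minus Ctrl was -0.25, with an SE of 0.18 and a limma adjusted p of 0.842, and it was -0.14 without A1, the highest Ctrl unit. Cpt2, on the inner membrane, stood at 9.69 ± 3.49 FPKM in Ctrl and 9.25 ± 1.85 in cKO, and the carrier Slc25a20 at 4.42 ± 0.567 and 5.13 ± 0.613 (SD, n = 3). The genotypes overlapped for both.

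The sequence upstream of Cpt1c (chr7:44974852-44975101, minus strand, RefSeq GRCm38.p6) is given as that of the shuttle gene with separate units. It holds a single copy each of AGGTCA, the GC box and the CCAAT box in reverse, marked by capitals as above.
Cpt1c: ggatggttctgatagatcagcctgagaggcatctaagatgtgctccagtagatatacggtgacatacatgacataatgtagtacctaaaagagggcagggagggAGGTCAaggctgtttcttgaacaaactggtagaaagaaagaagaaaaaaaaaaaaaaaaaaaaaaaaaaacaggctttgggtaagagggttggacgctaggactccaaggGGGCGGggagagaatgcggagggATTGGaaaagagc

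The 5 acyl-CoA dehydrogenases open each round of chain shortening and differ in the chain lengths they take. Acadl, for long chains, gave 46.2% to 58.6% of their summed FPKM, at 63.3 ± 12.5 FPKM in Ctrl and 57.8 ± 9.38 in cKO (SD, n = 3). Acadvl, for very long chains, stood at 13.8 ± 2.02 and 13.5 ± 2.22, and Acadm, for medium chains, at 18.5 ± 1.32 and 18.0 ± 0.957. All 3 overlapped between genotypes. Acads (ENSMUSG00000029545, chromosome 5, 115248358 to 115257405, minus strand), for short chains, measured 5.14, 5.33 and 6.08 FPKM in Ctrl and 6.60, 6.23 and 6.12 in cKO. Its units separated by a narrow margin, 6.08 against 6.12 FPKM, and its libraries did not, since A10 S2 was at 5.40 FPKM (log2 fold change 0.17, SE 0.15, limma adjusted p = 0.877). Acadsb, for short branched chains, measured 9.47, 12.5 and 17.5 FPKM in Ctrl and 17.7, 15.4 and 16.1 in cKO. A8 lay among the cKO units and the other 2 Ctrl units below them (log2 fold change 0.34, SE 0.22, limma adjusted p = 0.816). Acadsb made up 9.72% to 14.8% of dehydrogenase FPKM in Ctrl and 14.1% to 15.4% in cKO.

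Of all 17540 genes tested, 8622 had a log2 fold change above 0. For the 8 genes of the later steps, the log2 fold change was above 0 in 8 of 8, with a median of 0.10. This count was 5 to 8 when a unit was left out (5 without A1 or A4, 6 without A2, 7 without A9), and 4 with either the oligodendrocyte or the immediate-early score as a covariate. The immediate-early score was also lower on average in cKO, so a fit with it, here and below, cannot fully separate it from genotype. The 8 members share units and were not tested as a set. Acaa2, the mitochondrial thiolase that releases acetyl-CoA, measured 27.3, 29.9 and 21.4 FPKM in Ctrl and 32.8, 34.5 and 36.0 in cKO. Each cKO library was above each Ctrl library, the nearest being 32.3 and 31.2 FPKM, and A8 was the lowest unit. The means were 26.2 ± 4.36 and 34.4 ± 1.62 (SD, n = 3), and the log2 fold change with its SE was 0.39 ± 0.15, at a limma adjusted p of 0.606. Without A8 the difference was 0.26. With oligodendrocyte score as covariate it was 0.80, and the part of oligodendrocyte RNA in it was not tested.

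Eci2 (ENSMUSG00000021417, chromosome 13, 35161731 to 35211079, minus strand), an isomerase that moves double bonds of unsaturated acyl-CoA, measured 12.8, 13.5 and 12.2 FPKM in Ctrl and 13.8, 14.4 and 15.2 in cKO. All cKO values were higher and the nearest libraries were at 13.5 and 13.6 FPKM (log2 fold change 0.16, SE 0.12, limma adjusted p = 0.849). Its relative Eci1 stood at 19.1 ± 6.04 FPKM in Ctrl and 19.9 ± 4.03 in cKO (SD, n = 3), with A1 low at 12.3. Decr1, the dienoyl-CoA reductase for polyunsaturated chains, measured 11.7, 14.3 and 24.1 FPKM in Ctrl and 18.4, 15.7 and 16.4 in cKO. The Ctrl unit A8 was the highest and A1 the lowest, so the cKO units lay within the Ctrl range (log2 fold change 0.068, SE 0.25, limma adjusted p = 0.981). The short-chain enzymes Hadh (hydroxyacyl-CoA dehydrogenase, 10.4 ± 0.591 and 12.3 ± 2.19 FPKM in Ctrl and cKO) and Echs1 (enoyl-CoA hydratase, 8.78 ± 0.862 and 8.95 ± 0.728) overlapped between genotypes.

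Hadha and Hadhb encode the alpha and beta subunits of the mitochondrial trifunctional protein and start head to head, 273 bases apart on chromosome 5 in RefSeq GRCm38.p6. Hadha stood at 13.0 ± 0.339 FPKM in Ctrl and 14.1 ± 0.965 in cKO, and Hadhb at 24.0 ± 2.89 and 24.1 ± 1.92 (SD, n = 3). The ratio of Hadhb to Hadha was 1.63 to 2.03 over the units, with the genotypes overlapping. The 250 bases before the Hadhb start (chr5:30155003-30155252, plus strand) are shown because they are nearly all of the stretch that both genes share. Read on the other strand, the same stretch precedes Hadha. It holds 2 GC boxes, in capitals, and neither a CCAAT box nor AGGTCA on either strand.
Hadhb: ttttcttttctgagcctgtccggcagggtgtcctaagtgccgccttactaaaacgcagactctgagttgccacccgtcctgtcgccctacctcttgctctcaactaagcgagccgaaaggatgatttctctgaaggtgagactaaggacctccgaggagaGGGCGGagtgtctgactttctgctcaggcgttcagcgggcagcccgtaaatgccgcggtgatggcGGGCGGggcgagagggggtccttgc

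Of the 3 genes that carry electrons onward, Etfb (ENSMUSG00000004610, chromosome 7, 43093507 to 43107224, plus strand), the beta subunit of the electron transfer flavoprotein, measured 16.6, 13.9 and 8.11 FPKM in Ctrl and 19.5, 17.3 and 19.8 in cKO. All cKO units were above all Ctrl units, and A8 was far below the rest. The means were 12.9 ± 4.33 and 18.9 ± 1.39 (SD, n = 3), and the log2 fold change with its SE was 0.57 ± 0.25, at a limma adjusted p of 0.659. Without A8 the difference was 0.29. At the level of libraries the genotypes touched, at 16.8 FPKM in A1 S1 and in A9 S1. Its partner Etfa, the alpha subunit, measured 36.9, 40.4 and 35.4 FPKM in Ctrl and 48.6, 27.3 and 38.1 in cKO, with the lowest and highest values both in cKO. The ratio of Etfa to Etfb was 2.22, 2.91 and 4.37 in Ctrl and 2.49, 1.58 and 1.92 in cKO, so the overlap lay in A1 and A4. Etfdh, the oxidoreductase that hands the electrons to ubiquinone, stood at 7.04 ± 0.633 and 6.74 ± 0.801 FPKM.

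The Etfb upstream sequence (chr7:43443822-43444071, plus strand, RefSeq GRCm38.p6) is shown for the member with the largest positive difference. Its capitals mark CCAAT boxes, both read as ATTGG on this strand.
Etfb: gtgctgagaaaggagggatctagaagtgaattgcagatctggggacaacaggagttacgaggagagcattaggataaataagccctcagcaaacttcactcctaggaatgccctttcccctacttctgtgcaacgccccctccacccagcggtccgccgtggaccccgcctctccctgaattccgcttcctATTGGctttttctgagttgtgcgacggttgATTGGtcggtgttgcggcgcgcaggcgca

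**Figure D4:**
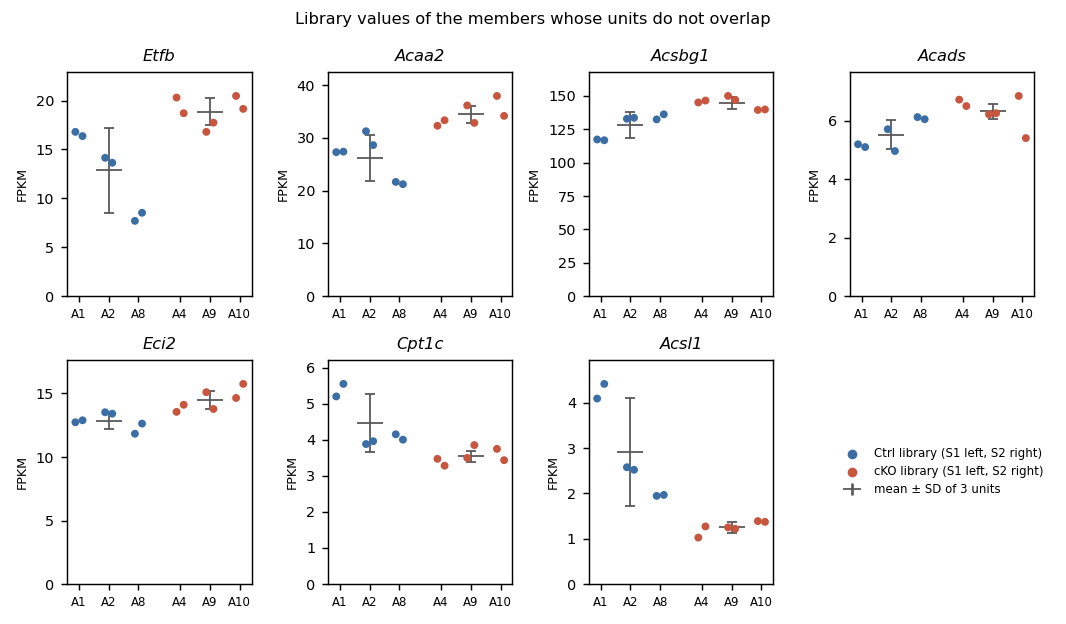
FPKM (vertical axes, from 0) of the 7 members whose units do not overlap, in each of 12 libraries by A number (blue Ctrl, red cKO; S1 left, S2 right), with the mean and SD of 3 units as grey bars. Etfb, Acaa2, Acsbg1, Acads and Eci2 are higher in cKO units and Cpt1c and Acsl1 lower; A8 is the lowest for Etfb, and A1 the highest for Acsl1.

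The ketone body genes overlapped between genotypes in all 3 cases. Oxct1, the transferase by which cells use ketone bodies, stood at 52.1 ± 8.14 FPKM in Ctrl and 53.8 ± 4.24 in cKO (SD, n = 3). Acat1, the thiolase joining acetyl-CoA units, stood at 17.8 ± 1.74 and 15.9 ± 0.672, and Bdh1, which interconverts acetoacetate and hydroxybutyrate, at 12.2 ± 0.767 and 13.9 ± 1.81. Ppara, the nuclear receptor that drives many oxidation genes, measured 3.75, 6.11 and 5.50 FPKM in Ctrl and 5.16, 5.30 and 6.27 in cKO. A1 was low and the other Ctrl units lay among the cKO units (log2 fold change 0.12, SE 0.20, limma adjusted p = 0.951). The lipid droplet coat genes Plin2 (3.07 ± 1.5 and 3.66 ± 0.771) and Plin3 (11.2 ± 1.57 and 10.7 ± 0.474) also overlapped.

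Of the 5 members that make fatty acids, none separated by genotype. Scd2 measured 756, 889 and 678 FPKM in Ctrl and 581, 703 and 686 in cKO. A4 was the lowest and A2 the highest, and A8 lay among the cKO units (log2 fold change -0.23, SE 0.15, limma adjusted p = 0.809). Scd1, its close relative, measured 73.6, 108 and 57.5 FPKM in Ctrl and 56.4, 57.0 and 61.5 in cKO, again with A8 among the cKO units (log2 fold change -0.40, SE 0.22, limma adjusted p = 0.764). Scd1 and Scd2 are similar in sequence, and how the authors' counting divided reads between them is not given in the sources used here. The ratio of Scd2 to Scd1 was 8.23 to 12.3. The sign was the opposite once the oligodendrocyte score entered as a covariate, at 0.14 for Scd2 and 0.20 for Scd1. Elovl5, which elongates polyunsaturated chains, measured 113, 111 and 137 FPKM in Ctrl and 116, 148 and 122 in cKO, with A9 highest and the genotypes overlapping (log2 fold change 0.094, SE 0.14, limma adjusted p = 0.941). Fasn, the synthase, stood at 67.4 ± 9.19 and 67.4 ± 7.07 FPKM, and Acaca, the carboxylase that makes malonyl-CoA, at 12.5 ± 0.460 and 12.2 ± 0.346.

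Results that rest on A8 were also read without it. Then 6 of 39 members had an unadjusted limma p under 0.05 against a background of 13.9%, and 16 (41.0%) had separate units against a background of 33.4%. The 6 were Acsl1 (log2 fold change -0.94), Scd1 (-0.61), Acadsb (0.55), Cpt1a (0.36), Decr1 (0.35) and Acaa2 (0.26), and the smallest adjusted p was 0.232. Other units moved members the other way: without A2 Scd1 was at -0.16, and without A1 Acadsb was at 0.14, Decr1 at -0.14, Cpt1c at -0.14 and Acsbg1 at 0.11. Without A4, the unit labelled cKO with Tnfrsf1b reads, the 7 separate members kept their direction, with log2 fold changes of 0.42 for Acaa2, 0.55 for Etfb, 0.17 for Acsbg1, 0.19 for Eci2, 0.14 for Acads, -0.23 for Cpt1c and -0.72 for Acsl1. With the oligodendrocyte score in the fit, the log2 fold change was 1.24 for Etfb, 0.33 for Eci2, -0.13 for Cpt1c, -0.043 for Acads and, outside the 7, 0.14 for Cpt1a. With the immediate-early score it was 0.91 for Etfb, 0.10 for Acads and 0.15 for Cpt1a. Leaving out A4, A9 or A10 left 0 members at an unadjusted p under 0.05, against backgrounds of 5.26%, 4.93% and 6.35%, and 9 with separate units in each case, against 19.8%, 19.8% and 21.8%. Without A1 there were 2 such members (background 7.16%) and 11 with separate units (22.6%), and 1 gene in all passed the adjusted threshold (0.00570% of those tested, and no member). Without A2 there were 1 (6.86%) and 10 (22.4%).

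S1 and S2 of the same unit were closer than different units of a genotype. The median SD between units was 0.18 on the log2 scale, against 0.054 between S1 and S2, and 38 of 40 members were more variable between units, the exceptions being Acads and Acaca. Fabp3 varied most between units (SD 0.79), then Plin2 and Acsl5 (0.40 each), Eci1 (0.39), Cpt2 (0.38), Decr1 (0.37) and Etfb (0.36). Eci2 and Hadha varied by 0.064 and 0.069. In a limma comparison of S2 with S1 within A numbers, 2 of 39 members passed an adjusted p of 0.05, both higher in S2, against a background of 1.39% (1.13% higher and 0.257% lower). Hadhb measured 19.6, 23.7, 24.2, 23.0, 24.5 and 21 FPKM in the S1 libraries of A1, A2, A8, A4, A9 and A10, and 21.7, 26.6, 27.9, 26.3, 26.9 and 23.0 in the S2 libraries. It was higher in S2 in 6 of 6 units (log2 difference 0.16, SE 0.017, adjusted p = 0.00436). Acaca measured 11.8, 11.5, 12.3, 11.7, 11.2 and 10.6 FPKM in S1 and 12.9, 12.7, 13.7, 13.0, 13.5 and 12.9 in S2, again higher in 6 of 6 (log2 difference 0.17, SE 0.029, adjusted p = 0.0362). The Acaca call was lost with any unit left out (adjusted p 0.0834 to 0.110), without the variance trend, without the filter and under either rescaling, while Hadhb passed under each of these. The S2 libraries were also the deeper ones in reads assigned to genes, at 28096485 to 35323327 against 17311872 to 22025823. The part of depth in these differences was not tested. In the limma test of a genotype by S interaction, 0 members had an unadjusted p under 0.05 against a background of 5.02%, and the smallest adjusted p was 0.952.

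Another 105 genes of fatty acid metabolism were read from the same fit, of which 87 passed the filter and were tested. None passed (0 of 87), 5 had an unadjusted limma p under 0.05 (5.75%, 1 higher and 4 lower, against 7.69% of all genes), and 15 had separate units (17.2%, 8 higher and 7 lower, against 13.0%, 5.76% higher and 7.22% lower). The smallest p belonged to elongases. Elovl7, for long saturated chains, measured 12.5, 12.9 and 8.66 FPKM in Ctrl and 2.45, 2.80 and 5.72 in cKO, all cKO units being lower (log2 fold change -1.45, SE 0.29, limma adjusted p = 0.333). Elovl1, for very long saturated chains, measured 17.0, 15.5 and 11.8 FPKM in Ctrl and 6.30, 6.45 and 9.05 in cKO (log2 fold change -0.93, SE 0.20, limma adjusted p = 0.333). Both followed the order of oligodendrocyte marker sums closely, A8 being the lowest Ctrl unit and A10 the highest cKO unit. When all 12 libraries entered limma with A as a random effect, S1 and S2 of a unit were separate rows and not independent. The limma adjusted p was then 0.0214 for Elovl7 and 0.0381 for Elovl1, and with the replicate block 0.0354 and 0.0616. Over all alternatives run it reached 0.879 and 0.892, both with oligodendrocyte score as covariate, where the log2 fold changes were -0.31 and -0.24. Elovl4, the elongase for very long polyunsaturated chains, ran the other way, at 5.36, 5.56 and 4.07 FPKM in Ctrl and 8.14, 8.56 and 6.93 in cKO (log2 fold change 0.57, SE 0.17, limma adjusted p = 0.474). Rxra, the partner receptor of Ppara, measured 4.86, 5.95 and 5.90 FPKM in Ctrl and 3.17, 3.51 and 4.05 in cKO, with no overlap (log2 fold change -0.52, SE 0.17, limma adjusted p = 0.531). Fitm2, a lipid droplet assembly protein, measured 10.7, 10.1 and 7.19 FPKM in Ctrl and 6.27, 6.31 and 5.87 in cKO, also with none (log2 fold change -0.52, SE 0.18, limma adjusted p = 0.565).

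By subgroup, separate units were counted for 6 of 14 tested peroxisomal genes, 5 of 19 synthesis and elongation genes, 2 of 10 regulators, 1 of 10 ketone body and acetyl-CoA genes, 1 of 12 lipid droplet and lipolysis genes, 0 of 16 other mitochondrial genes and 0 of 6 uptake and binding genes. The share over all genes tested was 13.0%. At an unadjusted limma p under 0.05 there were 0 of the 14 peroxisomal genes, against 7.69% of all genes. Of the 6 peroxisomal genes, Abcd2, Ehhadh, Crot and Hacl1 were higher in cKO and Hsd17b4 and Decr2 lower. Of 12 tested lipid droplet and lipolysis genes, 11 had a log2 fold change below 0, with a median of -0.26 against -0.0065 for all genes. Of all 17540 genes tested, 8918 were below 0. The 12 genes share units and were not tested as a set, and their count is from the main fit only. Of 16 other mitochondrial oxidation and carnitine genes, 8 were above 0 and 8 below. The 10 ketone body and acetyl-CoA genes split 5 and 5, the 6 uptake and binding genes 2 and 4, the 19 synthesis and elongation genes 10 and 9, and the 10 regulators 5 and 5.

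RefSeq promoter windows, from 250 bases before to 50 after a start, were at hand for 34 of 40 members (38 windows), without Acaa2, Decr1, Scd1, Scd2, Fabp5 and Acat1. Their median GC content was 60.5%, against 56.3% in 21263 windows of coding genes and 52.7% in all 32851, with a median of 17 CG pairs against 13 and 7. On either strand, the GC box GGGCGG occurred in 65.8% of member windows, 46.2% of coding windows and 35.7% of all. CCAAT occurred in 47.4%, 38.2% and 37.4%, and AGGTCA, the core hexamer of nuclear receptor elements, in 21.1%, 14.7% and 16.3%. A pair of these hexamers in tandem with any single base between them was in 0% of member windows, 0.0470% of coding windows and 0.0396% of all. At so low a rate, its absence from 38 windows says nothing about the members, and only exact letters were searched. TCAAGGTCA, which also contains AGGTCA, was found in Acsl6 alone (2.63%, against 0.334% of coding windows and 0.423% of all). TCACNCCAC was found in Acsl1 alone (2.63%, against 1.19% and 1.24%). The NRF1 element (GCGCA, any base, then GCGC) was in Etfb, Etfdh, Fasn and Ppara (10.5%, against 6.38% and 4.60%). CACGTG was in 5.26%, against 7.84% and 7.15%, and TATAAA in 0%, against 12.6% and 13.6%. GC-rich letters favour a GC-rich window, and these matches are descriptions of letters only.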

How the data were processed

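The deposited table gives FPKM values, which the authors computed for 56941 gene rows in 12 libraries made with the SMART-Seq V4 kit and read as 125-base pairs. The submitters' processing notes name FastQC, STAR, featureCounts and DESeq2, and mm10 and GRCm38, without versions or roles. Rows sharing a symbol (147 symbols) were summed, and 310 rows without one kept their identifier. S1 and S2 were averaged on the log2(FPKM + 1) scale, and the genotype test was limma 3.58.1, run in R 4.3.3 (variance trend, two-sided, Benjamini-Hochberg over 17540 genes, threshold 0.05). Recovered reads came out whole (within 0.02 of a read) for 82.8% to 86.3% of values per library. Tables were handled in Python 3.11.15, and the fits were tested on simulated data for bias and false calls. The simulated genotype changes were larger than any member's change in the main fit. Power for changes of the size reported was not tested. Full values are given for members with separate units or an unadjusted p under 0.05, the 5 highest in Ctrl, the Fabp genes, Cpt1a and Ppara, and for pathway genes with an unadjusted p under 0.05. Acadsb, Decr1, Scd1, Etfa, Hadhb and Acaca, and the test of S2 against S1, were added after their values were seen. The members and lists were chosen with earlier results of these data known. Alternatives covered scaling, filters, pseudocount, covariates, units left out and models of all 12 libraries.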

Additional observations from a re-analysis of the deposited data

How the results depend on the processing

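No gene passed the genotype threshold under the alternatives run, except 112 genes with 12 libraries and the A number as a random effect, 80 with the replicate block added to that model (replicate number as a term), and 0 to 1 when a unit was left out (1 without A1). No member passed under any of them. The replicate number marks S1 and S2 within an A number and pairs no Ctrl with cKO unit. Fits of 12 libraries enter S1 and S2 as separate rows, which are not independent. They use 1 correlation for all genes, 0.915, or 0.924 with the replicate block. Members at an unadjusted p under 0.05 numbered 2 (5.13%, against 7.69% of all genes tested), and 7 with the random effect (17.9% against 8.95%), 6 with the replicate block (15.4% against 8.48%), 1 without the variance trend (2.56% against 7.43%), 1 with a mean FPKM of at least 5 (2.94% against 9.04%), 4 with upper quartile scaling (10.3% against 7.9%), and 0 to 6 with a unit left out (6 without A8, 15.4% against 13.9%). Under median of ratios scaling there were 3 members at an unadjusted p under 0.05 (7.69% against 7.81%). Members with separate units numbered 9 to 16 with a unit left out (11 without A1, 16 without A8). S2 against S1 gave 243 genes, 142 without the trend, 152 without the filter and 152 to 180 with a unit left out, and 2 members, 1 without the trend, 1 without the filter and 1 with any unit left out (Acaca lost). The Acaca call was also lost under either rescaling.

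Signs were followed for the members given with full values and those past the unadjusted threshold without A8. Etfa, Hadhb and Acaca, whose values are also given, were not followed. Signs turned as follows, and the cause was not tested. Other members are not listed, such as Fasn (0.0052, and -0.10 without A8) and Oxct1 (0.053, and -0.081). The oligodendrocyte score went together with genotype, so a fit with it cannot tell them apart. The immediate-early score was lower on average in cKO, with overlap of the summed FPKM, so it is not fully separate from genotype either. With oligodendrocyte score as covariate, the log2 fold change was 0.28 for Fabp5, -0.41 for Fabp7, -0.17 for Acsl3, -0.16 for Acsl6, -0.043 for Acads, -0.20 for Acadsb, -0.66 for Decr1, -0.13 for Elovl5, 0.20 for Scd1 and 0.14 for Scd2. With the immediate-early score it was 0.15 for Fabp5, -0.081 for Acsl3, -0.22 for Decr1 and -0.067 for Elovl5. Fabp5 was at 0.017 in S2 alone, 0.011 under median of ratios scaling and 0.060 under upper quartile scaling, and Fabp3 at -0.030 with voom on recovered reads. With a unit left out in turn, the range was -0.17 to 0.076 for Fabp5 (above 0 without A1 or A2), -0.10 to 0.22 for Fabp7 (below 0 without A1 or A4), -0.045 to 0.79 for Fabp3 (below 0 without A4 or A8), -0.00017 to 0.16 for Acsl3 (lowest without A1), -0.14 to 0.35 for Decr1 (below 0 without A1 or A2), -0.052 to 0.24 for Ppara (lowest without A1) and -0.010 to 0.19 for Elovl5 (lowest without A9). Upper quartile scaling moved the median of all genes to 0.058, with 32 of 39 members above 0, and the oligodendrocyte score left 18 above 0.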
